A study of Homo sapiens with 16 samples.

Results

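The 52 genes described here encode the extracellular and cell-surface parts of WNT signalling: 19 WNT ligands, 18 receptors, 10 secreted antagonists, 4 R-spondins and the intracellular feedback gene AXIN2. They were taken by name from a list, and all 52 were found among the 19970 RefSeq protein-coding genes on chromosomes 1 to 22 and X of GRCh38. The data are ChIP-seq peak lists, which record where sheared chromatin bound by an antibody was denser than in the matching input chromatin. Of the 16 samples, 8 are immunoprecipitated (IP) libraries and 8 are inputs, and each IP library was called against its own input. The IP libraries are JARID2 in HepG2 cells, and JARID2, EZH2 and H3K27me3 in THLE-2 cells, each with 2 replicates that the series calls biological. HepG2 is a liver carcinoma line, and THLE-2 is a non-tumour liver epithelial line immortalised with the large T antigen of a simian virus. Neither line carried a listed genetic change or drug treatment, each stands for a single source of liver cells, and JARID2 is the one target mapped in both.

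WNT ligands are secreted lipid-modified proteins that bind Frizzled receptors together with LRP5 or LRP6, or with ROR and RYK receptors, and the LRP branch stabilises beta-catenin. Secreted Frizzled-related proteins (SFRPs, FRZB) and WIF1 bind WNTs, and most Dickkopf proteins (DKKs) bind the LRP co-receptors. R-spondins act through LGR receptors to keep Frizzleds at the surface. In liver, WNT signals pattern the lobule and the beta-catenin branch is often mutated in hepatocellular carcinoma. EZH2 is the methyltransferase of Polycomb repressive complex 2 (PRC2), H3K27me3 is the histone mark it writes, and JARID2 is a DNA-binding accessory subunit of that complex.

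A member counted as carrying a peak when any base of a peak lay within 2 kb of either annotated gene end. The lists differed in size and quality. HepG2 JARID2 replicate 1 held 15738 peaks with a median false discovery rate of 1.29%, against 4090 peaks and 100.0% in HepG2 JARID2 replicate 2. The THLE-2 JARID2 lists held 5356 and 5532 peaks, the EZH2 lists 2112 and 3690, and the H3K27me3 lists 46198 and 90524. Filtered IP tags numbered between 7945155 in HepG2 JARID2 replicate 1, the longest JARID2 list, and 39047005 in H3K27me3 replicate 1. HepG2 JARID2 replicate 2 had 14627883 tags and a shorter list. Every member peak of EZH2 and H3K27me3 carried the authors' false discovery rate of 100.0%, the value of the whole lists' median in those libraries, although all passed the p cutoff of 1e-05. The peak lists hold no expression, so the liver markers could not check the lines, and a gene with no deposited peak is one where MACS called none.

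Promoter sequences of 6 members are printed because they stand for the patterns described next. LGR6 held the EZH2 peak of highest fold among the members, WNT3A an EZH2 peak with no gene-end JARID2 peak, and WNT6 and SFRP5 EZH2 peaks together with HepG2 JARID2. FZD1 stands for receptors with HepG2 JARID2 alone, and WNT8B for ligands with H3K27me3 over the start in both replicates and no gene-end EZH2. WNT5B and WNT8A also had H3K27me3 without gene-end EZH2, but their gene-end peaks lay at the 3′ end, so WNT8B does not represent them. Each run covers 250 bases before to 50 after the annotated start, in the direction of transcription, from the RefSeq table of GRCh38.p14, with CpG dinucleotides in capitals.
LGR6 (chr1:202193549-202193848, plus strand): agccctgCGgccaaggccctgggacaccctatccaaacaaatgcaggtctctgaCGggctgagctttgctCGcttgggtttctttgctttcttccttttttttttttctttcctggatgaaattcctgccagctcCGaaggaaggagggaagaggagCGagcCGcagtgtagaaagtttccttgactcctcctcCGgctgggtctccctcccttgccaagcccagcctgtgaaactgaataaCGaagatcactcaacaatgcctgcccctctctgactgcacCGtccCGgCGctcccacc
WNT6 (chr2:218859555-218859854, plus strand): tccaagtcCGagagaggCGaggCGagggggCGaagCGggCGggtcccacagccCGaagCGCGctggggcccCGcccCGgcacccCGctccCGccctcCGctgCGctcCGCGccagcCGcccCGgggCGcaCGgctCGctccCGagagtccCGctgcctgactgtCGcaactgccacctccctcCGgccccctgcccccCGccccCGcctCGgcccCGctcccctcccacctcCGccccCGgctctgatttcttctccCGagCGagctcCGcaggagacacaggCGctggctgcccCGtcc
WNT3A (chr1:228006748-228007047, plus strand): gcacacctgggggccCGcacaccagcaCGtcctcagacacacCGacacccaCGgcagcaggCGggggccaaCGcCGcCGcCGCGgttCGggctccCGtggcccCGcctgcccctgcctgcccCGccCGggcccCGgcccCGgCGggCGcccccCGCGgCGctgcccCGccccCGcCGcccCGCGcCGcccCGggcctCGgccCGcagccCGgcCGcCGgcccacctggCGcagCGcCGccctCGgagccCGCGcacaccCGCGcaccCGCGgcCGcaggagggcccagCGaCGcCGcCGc
SFRP5 (chr10:97771950-97772249, minus strand): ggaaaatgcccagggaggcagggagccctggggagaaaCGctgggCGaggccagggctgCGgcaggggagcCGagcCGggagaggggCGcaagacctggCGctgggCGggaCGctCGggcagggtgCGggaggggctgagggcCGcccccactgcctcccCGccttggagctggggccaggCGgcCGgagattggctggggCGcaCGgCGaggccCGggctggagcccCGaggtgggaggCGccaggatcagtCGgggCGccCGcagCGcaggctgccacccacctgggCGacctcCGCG
FZD1 (chr7:91264183-91264482, plus strand): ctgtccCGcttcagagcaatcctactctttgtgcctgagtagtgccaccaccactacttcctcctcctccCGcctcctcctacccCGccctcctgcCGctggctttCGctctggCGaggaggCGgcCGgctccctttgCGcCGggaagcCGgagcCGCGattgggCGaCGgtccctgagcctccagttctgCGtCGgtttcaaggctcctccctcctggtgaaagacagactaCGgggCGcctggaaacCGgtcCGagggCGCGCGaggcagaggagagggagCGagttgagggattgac
WNT8B (chr10:100462759-100463058, plus strand): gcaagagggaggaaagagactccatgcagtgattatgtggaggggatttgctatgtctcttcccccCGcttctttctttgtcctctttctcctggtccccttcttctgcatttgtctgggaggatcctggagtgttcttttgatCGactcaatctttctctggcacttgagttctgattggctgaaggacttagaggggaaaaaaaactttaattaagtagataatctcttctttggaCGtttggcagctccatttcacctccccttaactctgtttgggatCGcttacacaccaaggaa
The windows of LGR6, WNT6, WNT3A and SFRP5 lay wholly inside the EZH2 peaks of both replicates, and that of WNT8B wholly inside an H3K27me3 peak of each replicate. The HepG2 JARID2 peak covered all of the WNT6 window and the downstream part of the FZD1 window.

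EZH2 in THLE-2 cells was the target with the most members marked in both replicates. EZH2 replicates 1 and 2 each marked 17 of the 52 members (32.7%), against 5.92% and 6.54% of all protein-coding genes. Peaks of both replicates were present at 14 members (26.9%), against 4.88% of all genes, and at all 14 the peaks of the replicates overlapped. These were 6 of 19 ligands (WNT1, WNT3A, WNT6, WNT7A, WNT10A and WNT11), 2 of 18 receptors (ROR2 and LGR6), 3 of 10 antagonists (SFRP1, SFRP2 and SFRP5) and 3 of 4 R-spondins (RSPO1, RSPO2 and RSPO3). At a MACS score of at least 100, 10 members remained, against 3.70% of all genes, and ROR2, LGR6, SFRP1 and RSPO1 were lost. This left 0 of 18 receptors, a share near the general one. None of the 10 Frizzled genes, which encode the main WNT receptors, had an EZH2 peak in either replicate. For 10 genes this count is near the general shares of 5.92% and 6.54%, so it does not set the Frizzleds apart.

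**Figure D1:**
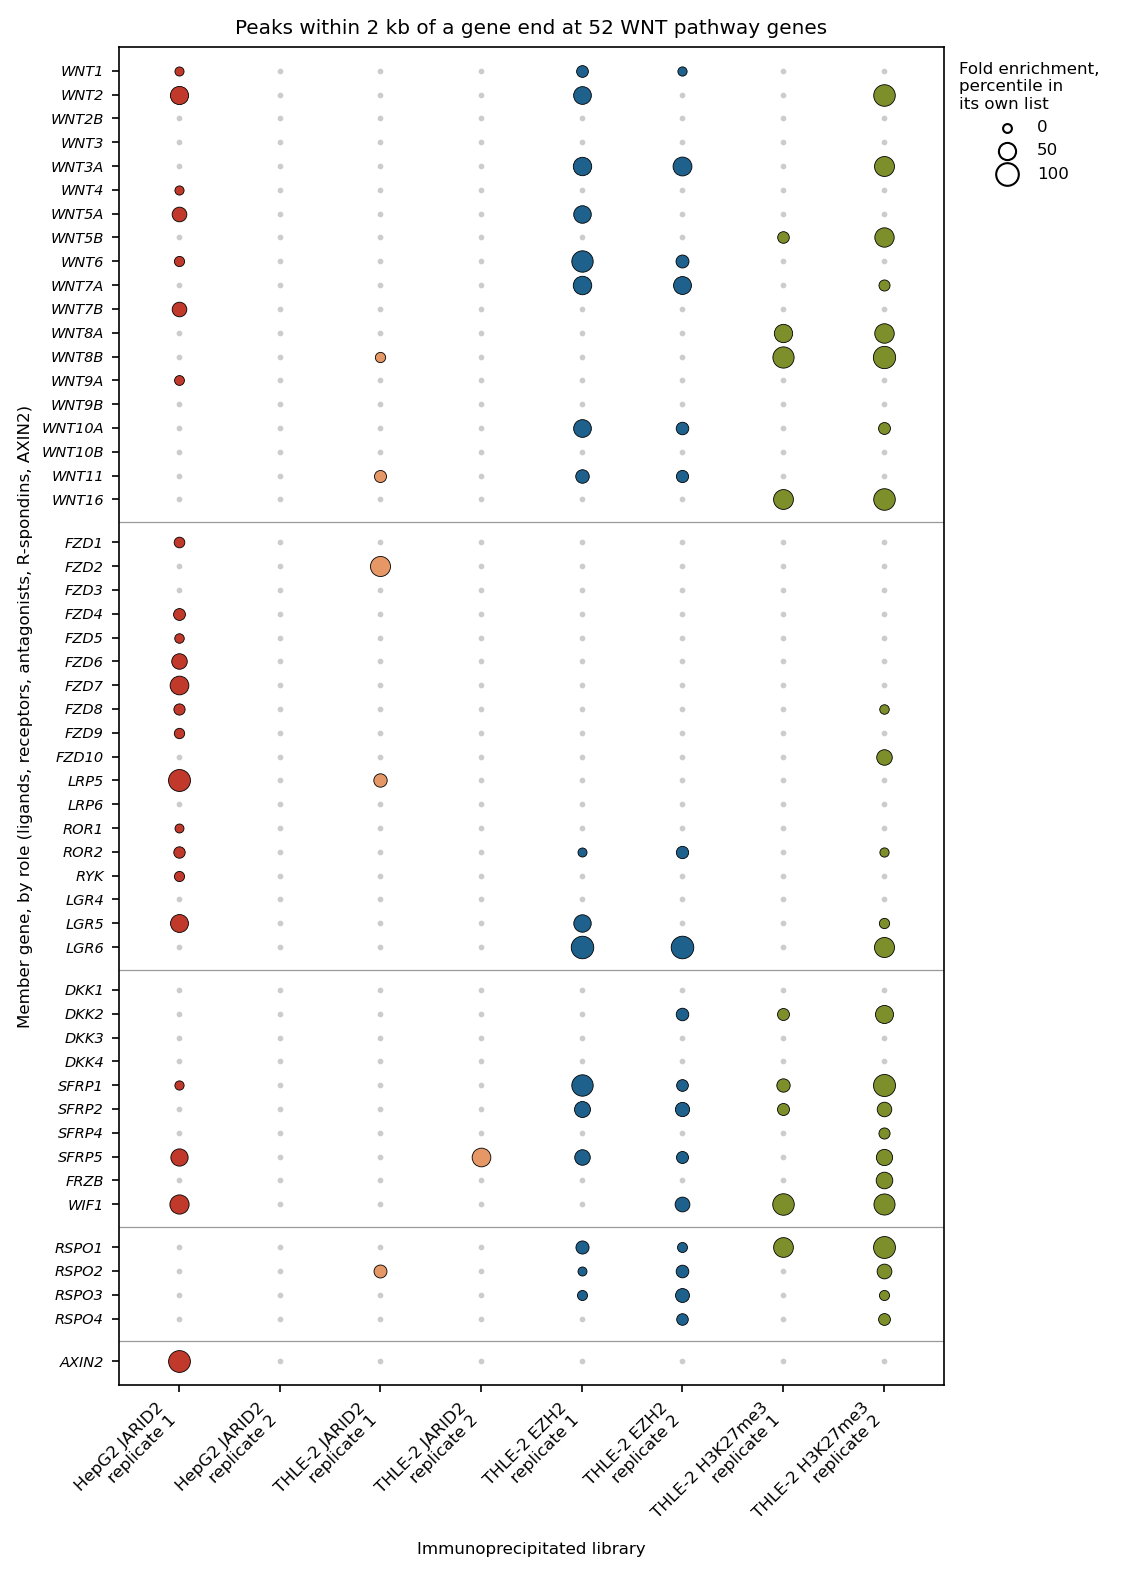
Peaks at the 52 genes (rows, grouped by role) in the 8 IP libraries (columns, HepG2 at the left). A filled circle marks a peak within 2 kb of a gene end, its area the percentile of the fold enrichment within that library's own list, and a small grey dot marks no peak. EZH2 marked 17 members in each replicate, HepG2 JARID2 replicate 1 marked 23 and HepG2 JARID2 replicate 2 marked 0.

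Among the ligands, fold enrichment, the authors' ratio of IP to local background, served only to rank a peak within its own list. WNT3A, a ligand of the beta-catenin branch, had EZH2 folds of 8.77 and 7.23 in replicates 1 and 2, above 60.2% and 63.9% of the peaks in those lists. Its peaks were 7974 and 6718 bp wide and spread over the start of the gene. WNT7A, known for limb and reproductive tract patterning, had folds of 8.84 and 7.13 and the highest EZH2 scores of any member, 861.12 and 1034.53 as -10 times log10 of the MACS p. WNT6 had folds of 11.4 and 5.31 over its start, above 87.2% and 20.7% of the peaks. The rank of the same WNT6 site thus differed widely between the replicates.

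WNT1, the founding oncogene of the family, lay wholly inside its EZH2 peaks, which had folds of 5.87 and 3.74 and extended over 6242 and 5382 bp of chromosome 12. WNT11, a ligand of the beta-catenin-independent branch, had the widest EZH2 peaks of all members, 8134 and 7729 bp, with folds of 6.47 and 4.99 at its upper coordinate end. The summits of the WNT1 and WNT11 peaks fell outside the 2 kb windows in at least 1 replicate, so these ligands were called by peak extent and not by peak summit. WNT10A, needed for teeth and other ectodermal appendages, had folds of 8.49 and 5.13, at a peak it shared with WNT6.

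Among receptors, LGR6, an R-spondin receptor of epithelial stem cells, stood highest by fold, although neither it nor ROR2 kept replicated EZH2 at a score of at least 100. Its EZH2 folds of 17.08 and 14.66 lay above 98.8% and 99.6% of the peaks in the lists, at 202193415 to 202194451 and 202193491 to 202194390 of chromosome 1. These peaks were narrow, 1037 and 900 bp, and held 64 and 63 tags, fewer than any other member with EZH2 in both replicates. ROR2, a receptor tyrosine kinase for WNT5A, had folds of 4.42 and 5.04 in peaks of 3362 and 3409 bp. The replicate 1 fold of ROR2 exceeded that of only 0.817% of the peaks in its list, so high and low ranks both occurred among the receptors.

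The SFRPs sequester WNTs outside the cell. SFRP1 had EZH2 folds of 11.44 and 4.82 in replicates 1 and 2, above 87.4% and 13.8% of the peaks in those lists. SFRP2 had 7.57 and 5.83, and SFRP5 had 7.39 and 4.92. SFRP1 was thus near the top of 1 list and near the bottom of the other, as WNT6 was. RSPO1, an R-spondin known from ovary development, had folds of 6.33 and 4.14. RSPO2, needed for limb and lung development, had 4.37 and 5.17, and RSPO3, a signal of the central vein endothelium in liver, had 5.15 and 5.69. The R-spondin peaks were 3647 to 5128 bp wide, and those of RSPO1 and RSPO3 covered the annotated start.

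EZH2 was called in 1 replicate alone at 6 further members (2.70% of all genes). WNT2, WNT5A and LGR5, a stem cell R-spondin receptor, had it in replicate 1, with folds of 8.49, 8.37 and 8.3. DKK2, WIF1 and RSPO4 had it in replicate 2, with folds of 5.13, 6.07 and 4.77. With RSPO4 included, EZH2 was called at all 4 R-spondins in at least 1 replicate.

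Strand and an annotated start were given for 36 of the 52 members, among them 11 of the 14 with replicated EZH2 (WNT11, SFRP1 and RSPO2 were not among them). EZH2 lay within 2 kb of the annotated start in both replicates at 12 of these 36 members, against 4.01% of the 15812 genes of the same table. The window of 2 kb on either side of the start was covered by EZH2 peaks to a median of 91.1% in replicate 1 and 87.0% in replicate 2 over the 11 members, and completely at WNT3A and WNT6. WNT5A, a ligand of the beta-catenin-independent branch, was the 12th. Its annotated start lies 17957 bp inside the gene, and there EZH2 had folds of 5.23 and 4.50 in replicates 1 and 2, over 4843 and 5113 bp. The gene-end rule had called WNT5A in replicate 1 only, at the outer end. WNT16 had an EZH2 peak at its annotated start in replicate 2 only, with a fold of 3.04.

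**Figure D2:**
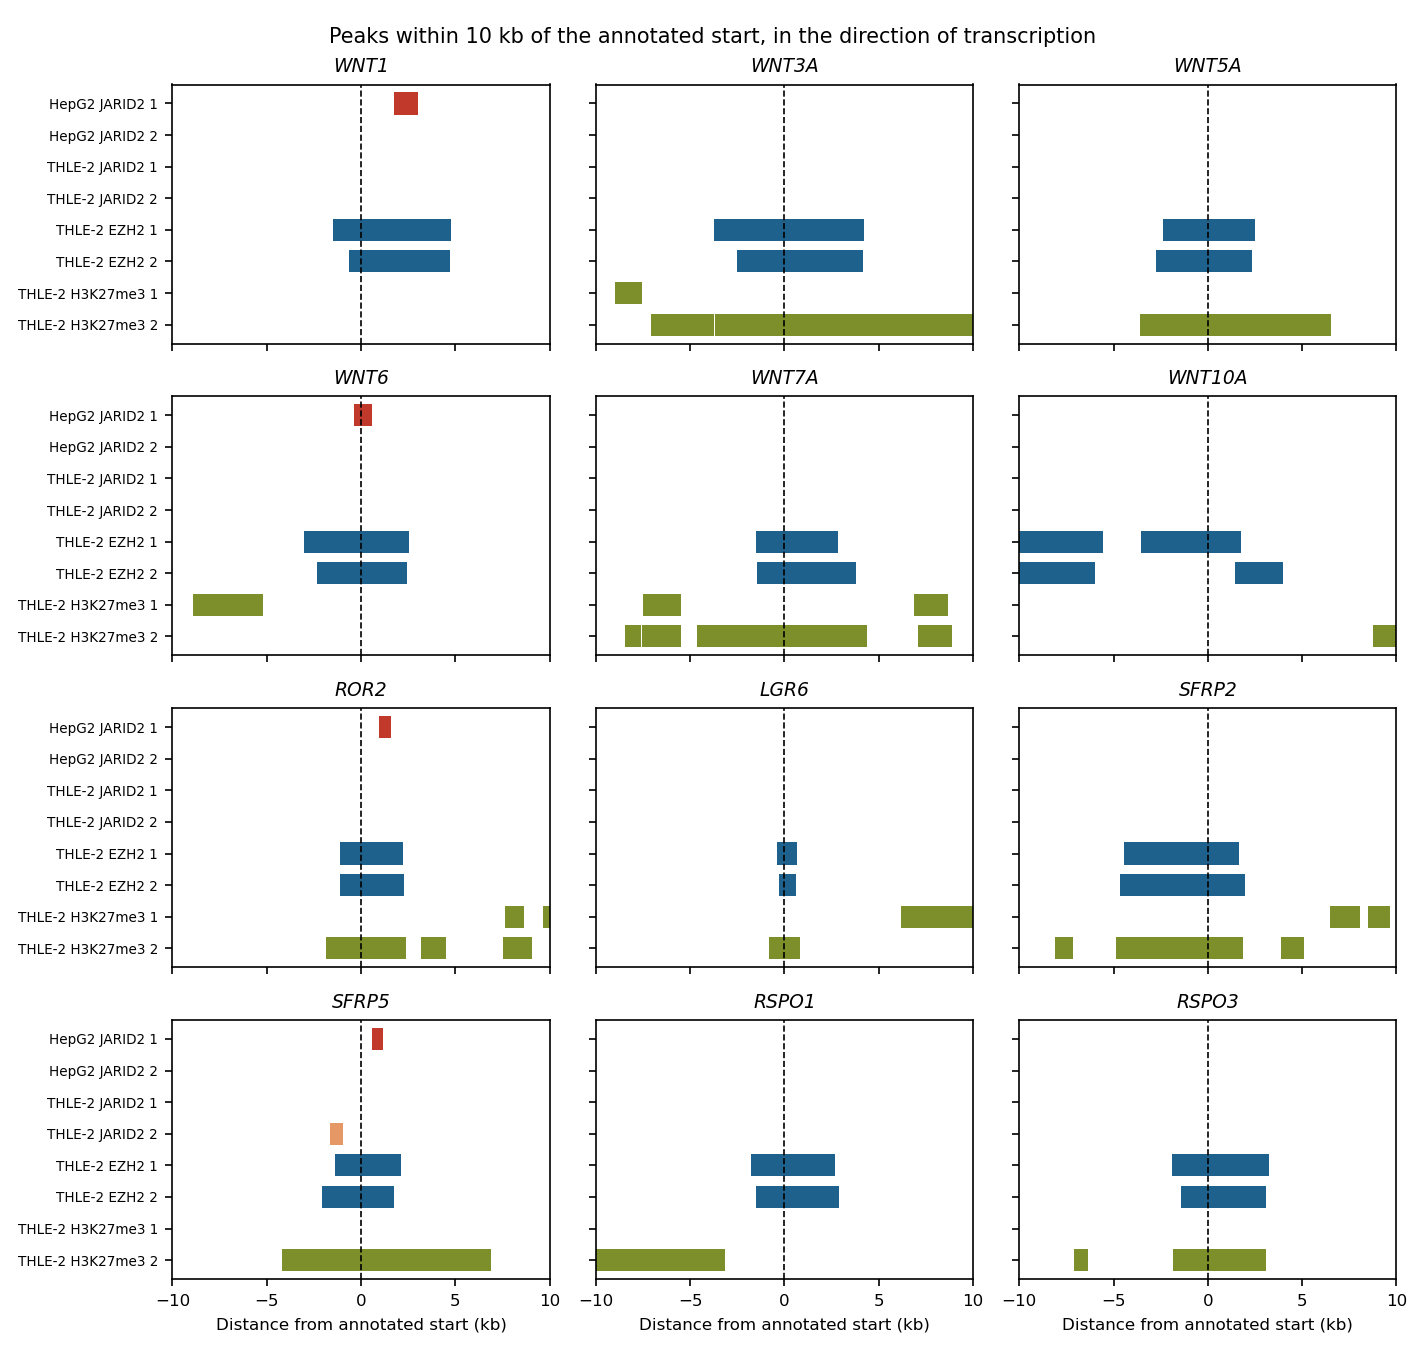
Peaks of the 8 IP libraries (rows, HepG2 at the top) within 10 kb of the annotated start of the 12 members with EZH2 there in both replicates, drawn in the direction of transcription with distance in kb. The dashed line is the start and bars are called peaks cut at the panel edge. EZH2 peaks lie over or beside the start in every panel, H3K27me3 replicate 2 peaks overlap it in 8 panels, and H3K27me3 replicate 1 peaks overlap it in 0.

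H3K27me3 in THLE-2 cells gave different pictures in its replicates. Replicate 2 marked 24 of 52 members (46.2%), against 19.1% of all genes, and replicate 1 marked 9 (17.3%), against 7.70%. The 9 members of replicate 1 were all among the 24 of replicate 2, so 9 had the mark in both (6.75% of all genes): WNT5B, WNT8A, WNT8B, WNT16, DKK2, SFRP1, SFRP2, WIF1 and RSPO1. At a MACS score of at least 100, 5 members had it in both, against 3.81% of all genes. By role, replicate 2 marked 8 of 19 ligands, 5 of 18 receptors, 7 of 10 antagonists and 4 of 4 R-spondins, and replicate 1 marked 4, 0, 4 and 1 of them.

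At the 14 members with replicated EZH2, the strongest EZH2 peak overlapped an H3K27me3 replicate 2 peak at 9 (WNT3A, WNT7A, ROR2, LGR6, SFRP1, SFRP2, SFRP5, RSPO2 and RSPO3). Over whole lists, 66.4% of EZH2 replicate 1 peaks and 49.4% of EZH2 replicate 2 peaks overlapped one. H3K27me3 replicate 1 overlapped the strongest EZH2 peak at 0 of the 14, against 9.95% and 12.4% of all EZH2 peaks. Its nearest peaks lay a median of 5460.5 bp from the EZH2 replicate 1 peaks of these members. At WNT3A, for example, H3K27me3 replicate 2 called a peak of 21193 bp across the start, while the nearest replicate 1 peak ended 3812 bp before the EZH2 replicate 1 peak. SFRP2 had H3K27me3 in both replicates by the gene-end rule, but the replicate 1 peaks lay at its 3′ end and the replicate 2 peak at its 5′ end. WNT1, WNT6 and WNT11 had replicated EZH2 and no gene-end H3K27me3 in either replicate (0.841% of all genes). These were 21.4% of the 14 members with replicated EZH2, near the 17.2% of all 975 such genes.

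The mark also stood at ligands without gene-end EZH2. WNT5B, WNT8A, WNT8B and WNT16 had H3K27me3 in both replicates and no gene-end EZH2 peak in either replicate. These were 4 of the 52 members, against 5.46% of all genes, so the share in members was near the general one. At WNT8B, an embryonic forebrain ligand, the peaks over the start had folds of 12.55 in replicate 1 and 8.08 in replicate 2. A further replicate 2 peak just upstream of the start had a fold of 14.55. At WNT5B the peaks lay beyond the 3′ end, with folds of 7.28 and 9.40, and at WNT8A they also lay at the 3′ end, with strongest folds of 10.14 and 9.66. WNT16 had strongest gene-end folds of 11.05 and 12.12 in peaks that did not overlap. A further replicate 2 peak, with a fold of 9.33, lay over its annotated start, as did the replicate 1 peak. An EZH2 replicate 2 peak, with a fold of 3.04, also lay over that start, so this site was not free of EZH2.

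Sides were counted where the strand was known. EZH2 replicates 1 and 2 marked the 5′ end of 13 and 12 of the 36 members, and the 3′ end of 2 and 3. Over all 15812 genes of the table the 5′ shares were 4.84% and 5.26%, and the 3′ shares 1.60% and 1.78%. H3K27me3 replicate 1 marked the 5′ end of 2 members and the 3′ end of 5 (all genes, 4.28% and 5.17%), and H3K27me3 replicate 2 marked 13 and 11 (all genes, 14.2% and 10.7%). HepG2 JARID2 replicate 1 marked the 5′ end of 16 members and the 3′ end of 3 (all genes, 18.8% and 6.00%). In each of these libraries the end marked more often was the same in members and in all genes. The H3K27me3 replicates went opposite ways, so no side can be given for that mark.

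**Figure D3:**
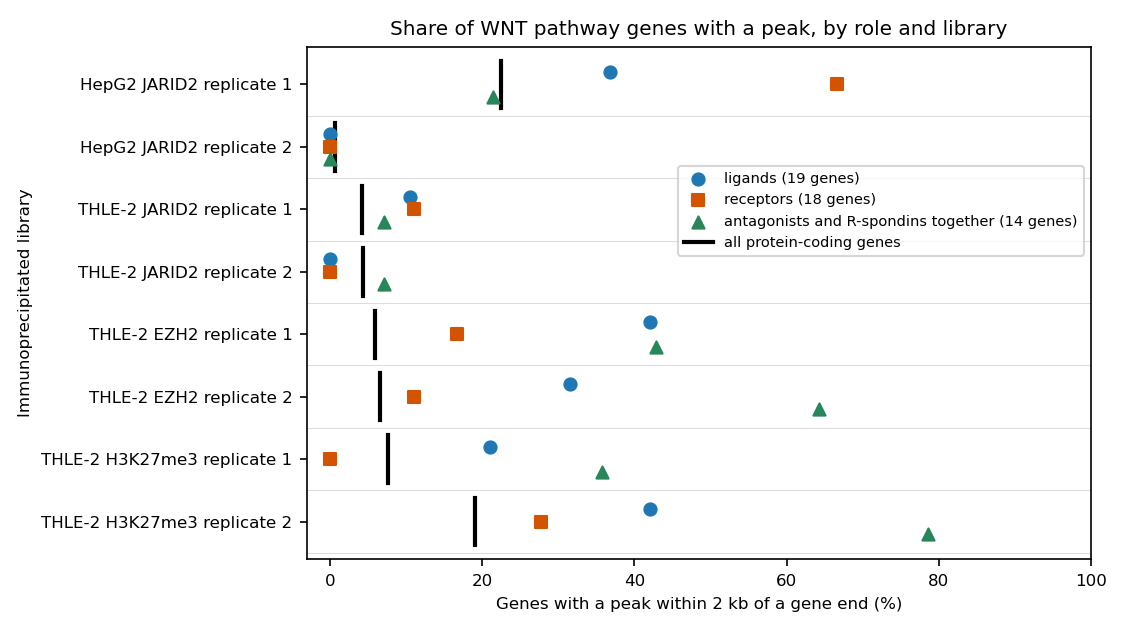
Share of genes with a peak within 2 kb of a gene end (horizontal axis, %) in each IP library (rows, HepG2 at the top), for 19 ligands, 18 receptors and the 14 antagonists and R-spondins together, with all 19970 protein-coding genes as a black bar. Receptors reach 66.7% in HepG2 JARID2 replicate 1, and antagonists and R-spondins reach 64.3% in EZH2 replicate 2 and 78.6% in H3K27me3 replicate 2.

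JARID2 in HepG2 cells was called at the gene ends of members in replicate 1 only. That library marked 23 of 52 members (44.2%), against 22.5% of all genes, and replicate 2 marked 0, against 0.716%. THLE-2 JARID2 marked 5 members in replicate 1 (9.62%, against 4.21% of all genes) and 1 in replicate 2 (1.92%, against 4.38%). No member had JARID2 in both replicates of HepG2 (0.165% of all genes) or of THLE-2 (0.356%). The shares of members averaged 22.1% in HepG2 and 5.77% in THLE-2, a difference of 16.3 percentage points. HepG2 was both the highest and the lowest library, and the exact two-sided permutation test over the 4 libraries gave p = 1.0000, where the smallest p that 2 against 2 libraries allow is 0.33. Since 1 HepG2 library carried every HepG2 gene-end peak at a member, line and library cannot be told apart. HepG2 JARID2 replicate 2 had peaks inside the bodies of WNT5A and SFRP4, which the gene-end rule did not count.

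Of ligands, receptors, antagonists and R-spondins, receptors had the highest share in HepG2 JARID2 replicate 1 and the lowest with replicated EZH2. The former rests on 1 library, in which 22.5% of all genes had a peak. Receptors had a peak at 12 of 18 genes, including 7 of 10 Frizzleds (FZD1, FZD4, FZD5, FZD6, FZD7, FZD8 and FZD9) and also LRP5, ROR1, ROR2, RYK and LGR5. Ligands had one at 7 of 19 (WNT1, WNT2, WNT4, WNT5A, WNT6, WNT7B and WNT9A), antagonists at 3 of 10 (SFRP1, SFRP5 and WIF1) and R-spondins at 0 of 4. The antagonist share of 30.0% was near the general one, and 4 R-spondins are too few to rank. The highest folds were those of LRP5, a co-receptor of Frizzleds, at 15.52, and AXIN2, a negative-feedback target of beta-catenin, at 14.79. AXIN2 also had the highest score of the members in this library, 284.51. The Frizzled folds lay between 5.44 (FZD5) and 11.38 (FZD7). Most ranked low within the list, since the median member peak exceeded only 12.1% of the folds in the list. At a MACS score of at least 100, 3 of the 52 members kept a peak (WNT7B, FZD6 and AXIN2), against 1199 of all 19970 genes (6.00%). At that score the share in members was thus not above the general one, and FZD6 was the only receptor left. This library was the only one with a gene-end peak at 12 members (14.7% of all genes): WNT4, WNT7B, WNT9A, FZD1, FZD4, FZD5, FZD6, FZD7, FZD9, ROR1, RYK and AXIN2.

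HepG2 JARID2 replicate 1 met THLE-2 EZH2 at 5 members with replicated EZH2, namely WNT1, WNT6, ROR2, SFRP1 and SFRP5, against 2.22% of all genes. Among genes with replicated EZH2, that was 35.7% of the 14 members, against 45.4% of all 975 such genes, so the share in members was not above the general one. At all 5 the JARID2 peak lay inside the EZH2 peaks of both replicates, with overlaps of 1293, 964, 594, 1089 and 596 bp. Over whole lists, 29.2% of EZH2 replicate 1 peaks and 17.5% of EZH2 replicate 2 peaks overlapped a peak of this JARID2 library. The JARID2 folds there were 4.86, 6.17, 7.11, 5.12 and 10.35. WNT2 also had a JARID2 peak of 690 bp inside its EZH2 replicate 1 peak, while the JARID2 peaks of WNT5A and LGR5 lay 524 and 796 bp from theirs. The comparison is between different lines, and EZH2 in HepG2 was not analysed here.

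THLE-2 JARID2 replicate 1 had peaks at WNT8B, WNT11, FZD2, LRP5 and RSPO2, with folds of 6.38, 7.01, 10.27, 7.8 and 7.6. THLE-2 JARID2 replicate 2 had a peak at SFRP5, with a fold of 8.96. The false discovery rates of these peaks were high, 15.7% to 17.32% in replicate 1 and 44.47% in replicate 2. The WNT11 and RSPO2 peaks lay inside the EZH2 peaks of both THLE-2 replicates, and the SFRP5 peak overlapped them by 458 and 713 bp. Gene-end JARID2 in either THLE-2 library together with replicated EZH2 occurred at 0.606% of all genes. It was present at 21.4% of the 14 members with replicated EZH2, against 12.4% of all 975 such genes. By peak overlap and per library, THLE-2 JARID2 replicates 1 and 2 overlapped the strongest EZH2 peak at 2 and 1 of the 14 members. Over whole lists, each of these libraries overlapped between 2.36% and 3.84% of the EZH2 peaks. LRP5 and SFRP5 carried JARID2 in HepG2 replicate 1 and a THLE-2 library (3.14% of all genes). At LRP5 the HepG2 and THLE-2 peaks were 1023 bp apart near the 3′ end, and at SFRP5 they were 1499 bp apart on either side of the start, so neither pair overlapped.

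Gene-end peaks in at least 4 of the 8 libraries occurred at 7 members (13.5%, against 2.89% of all genes). These were SFRP1 and SFRP5 with 5 libraries each, and ROR2, SFRP2, WIF1, RSPO1 and RSPO2 with 4 each, so 6 of the 7 encode secreted modulators. WIF1, which binds WNTs directly, had a HepG2 JARID2 replicate 1 fold of 11.73 at its 5′ end and a gene-end EZH2 peak in replicate 2 only, at its 3′ end. A second EZH2 replicate 2 peak, with a fold of 8.82, lay inside the gene 4802 bp from the annotated start. Its gene-end H3K27me3 peaks lay at the 3′ end in replicate 1, with a strongest fold of 13.04, and at both ends in replicate 2. At SFRP1, H3K27me3 replicate 1 had a fold of 8.21 at the end opposite to EZH2, and replicate 2 had peaks at both ends. RSPO1 likewise had H3K27me3 at its 3′ end in both replicates, with strongest folds of 10.73 and 12.91, and EZH2 at its 5′ end. A stronger H3K27me3 replicate 2 peak, with a fold of 19.6, lay outside the gene 3136 bp from the annotated start, beyond the 2 kb window and on the side of the EZH2 peaks.

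Several WNT genes lie in neighbouring pairs. WNT6 and WNT10A overlap by 118 bp and shared an EZH2 peak, at 218870250 to 218875274 of chromosome 2 in replicate 1 and 218870512 to 218874876 in replicate 2. The gene-end call of WNT10A thus rests on a peak that also lies within 2 kb of the WNT6 3′ end. EZH2 covered 37.6% and 27.4% of the span of the pair in replicates 1 and 2. WNT10A had a further EZH2 peak over its annotated start in replicate 1, with a fold of 7.62, and one 1441 bp beyond it in replicate 2, with a fold of 4.91. In the pair of WNT1 and WNT10B, EZH2 covered 33.4% and 28.6% of the span, all of it at WNT1. WNT3A and WNT9A are 59065 bp apart: WNT3A had EZH2, while WNT9A had gene-end HepG2 JARID2 alone, with a fold of 5.84. The pair of WNT3 and WNT9B had no peak of any library over its span of 124233 bp.

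**Figure D4:**
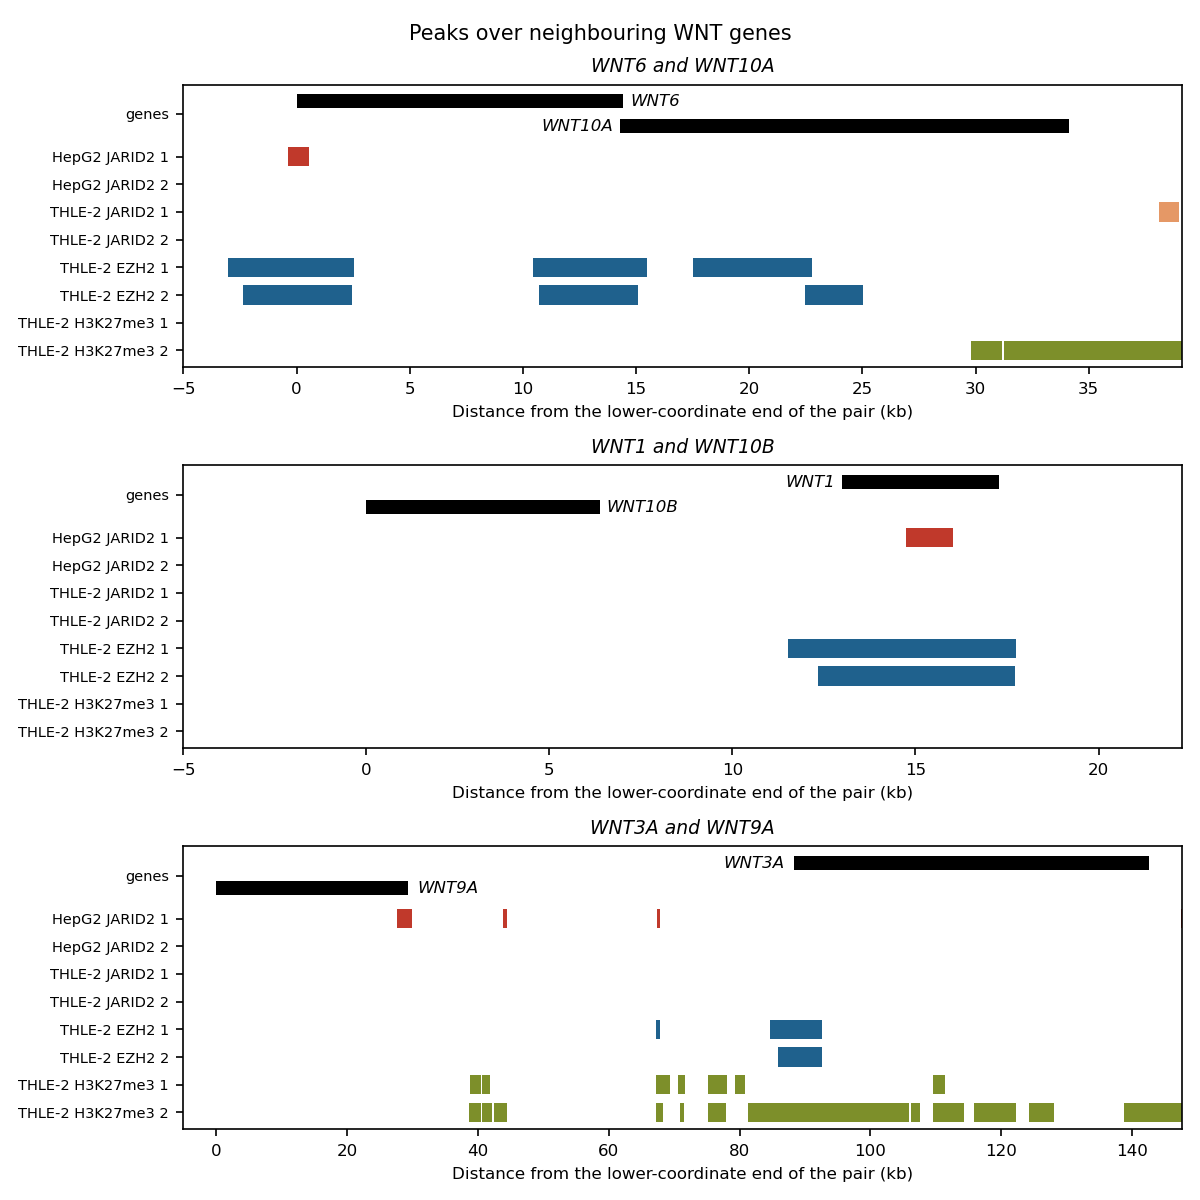
Called peaks of the 8 IP libraries (rows, HepG2 at the top) over the pairs WNT6 and WNT10A, WNT1 and WNT10B, and WNT3A and WNT9A, as distance in kb from the lower-coordinate end of each pair, with genes as black bars. EZH2 covers 37.6% and 27.4% of the span of the pair of WNT6 and WNT10A in replicates 1 and 2, and no peak of any library lies at WNT10B.

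No gene-end peak was called in any library at 10 members (56.6% of all genes): WNT2B, WNT3, WNT9B, WNT10B, FZD3, LRP6, LGR4, DKK1, DKK3 and DKK4. The other 42 members (80.8%, against 43.4% of all genes) had at least 1. Among the Dickkopfs only DKK2 had a gene-end peak, in EZH2 replicate 2 and both H3K27me3 replicates. WNT2B had 2 HepG2 JARID2 replicate 1 peaks inside its body, with folds of 13.41 and 5.69, which the gene-end rule did not count. DKK4 likewise had a HepG2 JARID2 replicate 1 peak and an H3K27me3 replicate 2 peak inside its body, with folds of 9.96 and 7.71. FZD3 had a THLE-2 JARID2 replicate 2 peak in its body, with a fold of 8.31. At gene ends, the remaining members were marked by H3K27me3 replicate 2 alone. FZD10 had a fold of 7.51 and the highest score of any member, 2445.70, SFRP4 a fold of 5.57, and FRZB a fold of 8.08. Inside its body, SFRP4 also had a HepG2 JARID2 replicate 2 peak, and FRZB had peaks of EZH2 replicate 2 and H3K27me3 replicate 1. FZD8 had H3K27me3 replicate 2 beside HepG2 JARID2 replicate 1, with folds of 4.50 and 6.93.

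Promoter CpG content was counted in the 300-base windows of the 36 members in the table. The median was 29 CpGs in members and 22 in all 15812 promoters, of which 98.1% held at least 1. The 17 members with HepG2 JARID2 replicate 1 had a median of 37, against 20 in the 19 without, and for all genes with that peak the median was 29. The 11 members with replicated EZH2 had a median of 30, between 11 at LGR6 and 49 at WNT3A, and all genes with replicated EZH2 had 27. SFRP2 and RSPO3 were low as well, with 15 and 13. The 4 ligands with H3K27me3 in both replicates and no gene-end EZH2 had a median of 7, between 4 at WNT8A and WNT8B and 20 at WNT16, and all genes with replicated H3K27me3 had 6. These counts describe base composition, whose part in the calls was not tested.

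**Figure D5:**
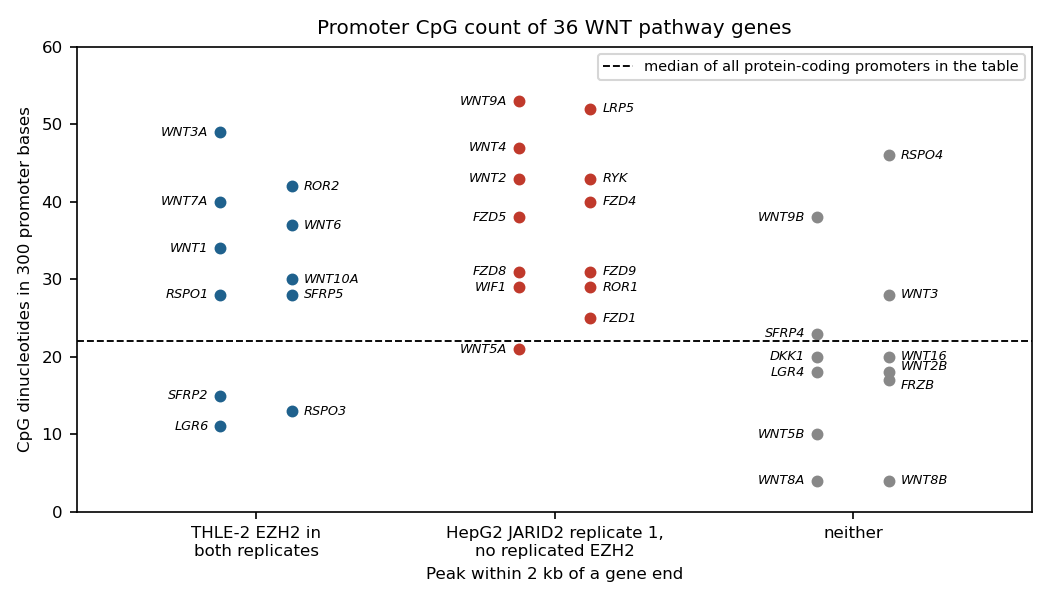
CpG dinucleotides per 300 promoter bases (vertical axis) of the 36 members in the promoter table, by peak status within 2 kb of a gene end, 1 point per gene, with the median of all protein-coding promoters, 22, as a dashed line. Of members with replicated EZH2, LGR6, RSPO3 and SFRP2 lie below the line.

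Elsewhere in the pathway, replicated EZH2 was called at 5 of 49 further genes of intracellular signalling, WNT secretion and planar cell polarity. They were APC2 and LEF1, a destruction-complex scaffold and a beta-catenin partner on DNA, NOTUM, which removes the WNT lipid, APCDD1, a membrane inhibitor of WNTs, and CELSR1, a planar polarity cadherin. The shares were 26.9% of the 52 members, 10.2% of the 49 further genes and 4.88% of all genes. HepG2 JARID2 replicate 1 marked 21 of the 49 (42.9%, against 22.5% of all genes), a share near that of the members. Of the 9 planar polarity genes it marked 7. HepG2 JARID2 replicate 2 marked 1 of the 49, DAAM1 (0.716% of all genes), and 0 had a peak in both replicates (0.165%). Of 11 hepatocyte and epithelial marker genes, 0 had gene-end EZH2 in either replicate (all genes, 5.92% in replicate 1 and 6.54% in replicate 2). TTR and HNF4A had H3K27me3 in both replicates (6.75% of all genes), AFP in replicate 1 only, and ALB and APOB in replicate 2 only. CDH1 alone had HepG2 JARID2 replicate 1 (22.5% of all genes).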

How the data were processed

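ChIP-seq peak lists of 8 IP libraries were used, each called against its own input. The tools cutadapt and Bowtie2, the peak caller MACS 1.4.2 and build GRCh38 are listed in the submitters' processing notes. MACS, per the file headers, used a p cutoff of 1e-05, at most 1 tag per position and no pooling of replicates. Each deposited list gives, for every peak, its tag count, a score (the MACS p as -10 times its log10), a fold enrichment (a ratio of IP to local input background) and a false discovery rate in percent. The protocol text names the JARID2 antibody in 1 sample, so targets were taken from titles and antibody tags.

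Peaks on chromosomes 1 to 22 and X were matched to RefSeq gene ends (2 kb, at least 1 bp) with Python 3.11.15, pandas 2.3.3 and numpy 2.4.6, and figures were drawn with matplotlib 3.10.9. The matching was tested on simulated peaks placed at known genes. Strand and promoter sequence came from the RefSeq GRCh38.p14 promoter table, and members not in it (16 of 52) have neither here. Peaks hold no per-sample signal, so results are counts beside those of all genes, with no set test. The exception is the exact permutation test of the JARID2 shares (SciPy 1.17.1). Precision is limited by 2 replicates per group and by list sizes. Alternatives were windows of 1 and 5 kb, a score of at least 100, the 2000 highest-scoring peaks, summits in place of extents, the 5′ end or annotated start alone, and each replicate left out. Genes without a strand kept either end in the 5′ end and annotated start settings. Positions and folds are given for members with EZH2 in both replicates or peaks in at least 4 libraries, and other values were picked after they were seen. The members and lists were chosen with earlier results of these data known.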

Additional observations from a re-analysis of the deposited data

How the results depend on the processing

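Of 157 recomputed values, 125 stayed within 1.5 times the reported count and 32 moved further. These are counts, which have no direction to reverse. The cause of the moves was not tested beyond the construction of each setting (fewer peaks or narrower windows). Replicated EZH2 stayed within that range under every alternative run, but a MACS score of at least 100 removed ROR2, LGR6, SFRP1 and RSPO1, and the summit rule removed WNT1 and WNT11. At a score of at least 100, members fell to 3 in HepG2 JARID2 replicate 1, 0 in THLE-2 JARID2 replicate 1, 0 in THLE-2 JARID2 replicate 2, 5 in H3K27me3 replicate 1 and 5 in H3K27me3 in both replicates. By class, that score left HepG2 JARID2 replicate 1 at 1 ligand, 1 receptor and 0 antagonists, replicated EZH2 at 0 receptors, and H3K27me3 replicate 2 at 3 receptors. With the 2000 highest-scoring peaks of each list, the counts were 7 for HepG2 JARID2 replicate 1, 1 and 0 for THLE-2 JARID2 replicates 1 and 2, 0 and 7 for H3K27me3 replicates 1 and 2, and 0 for both. THLE-2 JARID2 replicate 1 had 3 members with a window of 1 kb, and replicate 2 had 2 with a window of 5 kb. The 5′ end alone was used only at members with known strand, and either end at the 16 others. THLE-2 JARID2 replicate 1 then had 3, H3K27me3 replicate 1 had 4 and both H3K27me3 replicates had 4. Among the 36 members with known strand, THLE-2 JARID2 replicate 1 marked the 5′ end of 0 and H3K27me3 replicate 1 that of 2. The annotated start, added after seeing the data, was likewise replaced by either end at those 16. It gave 3 and 2 for THLE-2 JARID2 replicates 1 and 2, and 4 and 4 for H3K27me3 replicate 1 and both. Among the 36 members alone, THLE-2 JARID2 replicates 1 and 2 had 0 and 2, and H3K27me3 replicate 1 had 2. Where peaks had to overlap, 0 members joined replicated EZH2 and H3K27me3 replicate 1.

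Leaving out 1 replicate gave 0 to 23 members for HepG2 JARID2, 1 to 5 for THLE-2 JARID2, 17 for EZH2 and 9 to 24 for H3K27me3. It gave 6 to 8 EZH2 members with HepG2 JARID2 replicate 1, and 3 to 5 with H3K27me3 replicate 1. No paired analysis was possible because the counts come from no test, and the one test compares 4 libraries by their shares. Peaks were called at the depth of each library, but list length did not follow depth. The JARID2 library with the fewest tags, HepG2 replicate 1, had the longest JARID2 list. Absence from a short list does not show absence of binding.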
